A study of Mus musculus with 2 samples.

Results

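TGF-beta signalling runs from a secreted ligand, Tgfb1, through a pair of membrane kinases to Smad proteins that enter the nucleus. Tgfbr2 binds the ligand and activates Tgfbr1, which phosphorylates Smad3, while the co-receptor Tgfbr3 presents ligand. Smad6 and Smad7 restrain the receptors, and Ski, Skil and Tgif1 hold Smad-bound genes silent, with Smad7 and Skil themselves induced by the pathway as feedback. In bone marrow the pathway is known for keeping hematopoietic stem cells quiescent. These 10 genes were selected by name from the 34745 genes of the deposited tables, and each was found exactly once.

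The samples were LSKs (lin- cells carrying c-kit and Sca1) sorted from the BM of Scl/tTA-BA mice on a C57BL/6 background. In these mice the Scl/tTA driver switches on BCR/ABL (BA), the fusion kinase of CML, once doxycycline is taken away, so that mice of both groups carry both transgenes. The week-0 group was taken with BA off and the week-3 group 3 weeks after induction, and each group was 1 library from 3 mice mixed together, of an age not given in the sources used here. The driver acts in stem and progenitor cells, and not every sorted LSK need express BA at week-3. With 1 library per group the spread between mice is unknown, no test across samples was possible, and each value below compares these 2 libraries.

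The libraries held 6356164 (week-0) and 3886695 (week-3) reads on genes. A count of 0 allows up to 3 reads, which is 0.472 RPM (reads scaled to the library total on genes) in the week-0 library and 0.772 RPM at week-3. Levels are given as FPKM (fragments scaled to exon length and to library size). Ratios are log2 of the week-3 FPKM over the week-0 FPKM, with exact Clopper-Pearson 95% intervals. These intervals treat each read as an independent draw and cover counting error only. Amplified reads are not independent molecules, so the intervals may be too narrow. A gene was past the fold when its ratio was at least 2 or at most 0.5, among the 13689 genes with at least 10 reads over both libraries. All 10 members passed that limit on reads.

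Of the 10 members, 7 were past the fold with a lower FPKM at week-3, where 17.9% of all genes tested were lower by that much. None of the 10 was past the fold in the other direction, against 11.9% of all genes tested. The members were chosen with earlier results of these data known, so these counts are descriptive and not independent support. Ski, Skil, Smad7, Tgif1, Tgfb1, Tgfbr2 and Smad3 were the 7 lower genes, and each of their intervals lay below no change. The median log2 ratio over the members was -1.32, beside 0.05 over all genes tested. Summed over the members, reads took 0.153% of the week-0 library and 0.0314% of the week-3 library. In bulk RNA, fewer cells expressing a gene and less RNA per cell cannot be told apart.

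The promoter windows of Ski, Tgfb1, Tgfbr2 and Smad6 are shown because these genes stand for a corepressor, the ligand, a receptor and an inhibitory Smad. The sequences are from RefSeq on GRCm38, 5′ to 3′ on the gene's strand, and are the bases of the window that lie before the gene's deposited start. For Smad6 the stretch runs 4 bases into the gene, to the end of a Smad palindrome. Capitals mark GGGCGG on either strand (a GC box) in Ski and Tgfb1, CCAAT on either strand in Tgfbr2, and the palindrome GTCTAGAC, which Smad proteins bind, in Smad6. Only that motif is marked in each gene. Other matches stay in lower case, such as GC boxes in Smad6 and CAGAC, a shorter Smad box, in Tgfbr2. The stretches are at chr4:155222593-155222785 (minus strand) for Ski, chr7:25686752-25687001 (plus strand) for Tgfb1, chr9:116175364-116175613 (minus strand) for Tgfbr2 and chr9:64022056-64022309 (minus strand) for Smad6.
Ski: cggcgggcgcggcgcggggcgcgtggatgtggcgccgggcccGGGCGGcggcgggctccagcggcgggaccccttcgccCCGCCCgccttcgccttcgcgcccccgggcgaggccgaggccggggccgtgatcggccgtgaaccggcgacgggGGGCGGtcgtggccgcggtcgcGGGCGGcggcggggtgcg
Tgfb1: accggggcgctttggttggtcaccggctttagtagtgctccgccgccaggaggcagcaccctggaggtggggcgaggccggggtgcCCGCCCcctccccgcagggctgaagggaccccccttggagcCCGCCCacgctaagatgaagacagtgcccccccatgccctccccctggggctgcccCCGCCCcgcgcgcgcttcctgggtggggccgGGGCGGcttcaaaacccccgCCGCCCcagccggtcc
Tgfbr2: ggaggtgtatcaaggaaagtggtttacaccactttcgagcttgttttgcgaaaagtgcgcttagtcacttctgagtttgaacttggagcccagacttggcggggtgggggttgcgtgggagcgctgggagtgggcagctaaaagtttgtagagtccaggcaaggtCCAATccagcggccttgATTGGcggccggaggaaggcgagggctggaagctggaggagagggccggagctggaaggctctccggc
Smad6: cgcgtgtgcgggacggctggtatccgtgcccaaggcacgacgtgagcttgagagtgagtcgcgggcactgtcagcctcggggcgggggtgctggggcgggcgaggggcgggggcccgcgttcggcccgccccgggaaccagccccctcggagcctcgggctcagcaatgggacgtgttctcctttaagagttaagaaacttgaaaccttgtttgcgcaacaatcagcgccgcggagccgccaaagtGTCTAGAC

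RefSeq windows, from 250 bases before to 50 bases after a start, were matched by symbol for 7 of the 10 members, which had 12 windows among them, and Skil, Smad7 and Tgfbr3 had no entry. GTCTAGAC was in 1 member window, that of Smad6, from position -4 to position 4 around the start, and in 0.213% of all 32851 windows. GGGCGG was in 7 of the 12 member windows, from 6 genes, and in 35.7% of all windows. CCAAT was in 5 of the 12, from 4 genes, and in 37.4% of all windows. CAGAC, the shorter Smad box, was in 5 of the 12, from 3 genes, and in 49.6% of all windows. No member window held TGANTCA, the AP-1 site (7.81% of all windows), or TGACGTCA, the CRE (1.79%). These are matches of letters on both strands of a short window and not measured sites.

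The corepressors had the lowest ratios of the members. Ski (ENSMUSG00000029050, GRCm38 chromosome 4, minus strand, from 155154075 to 155222592) binds Smads and recruits histone deacetylase complexes. It had 891 reads (21.9 FPKM) in the week-0 library against 50 (2.01 FPKM) in the week-3 library. The week-3 level was 9.18% of the week-0 level, a log2 ratio of -3.45 (95% interval -3.89 to -3.03). A lower ratio than that of Ski was found for 1.64% of the genes tested.

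Skil, also called SnoN, is the paralog of Ski (ENSMUSG00000027660, plus strand of chromosome 3, from 31095058 to 31122577). It had the most reads of any member, 4965 at week-0 against 327 at week-3, and its FPKM was 37.5 and 4.04. The log2 ratio was -3.21 (interval -3.38 to -3.05), a level 9.28 times lower at week-3. The intervals of Ski and Skil overlapped, and both lay apart from those of the other 8 members. Accordingly the reads of Skil per read of Ski, 5.57 at week-0 (interval 5.19 to 5.99) and 6.54 at week-3 (interval 4.84 to 8.99), were not distinguishable at this depth.

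Tgif1 is a homeodomain protein that competes with co-activators on Smads (ENSMUSG00000047407, minus strand of chromosome 17, from 70844205 to 70853546). It had 1074 reads (13.9 FPKM) in the week-0 library against 231 (4.89 FPKM) in the week-3 library. The log2 ratio of -1.51 (interval -1.72 to -1.30) was past the fold but smaller in size than those of Ski and Skil. Skil had 4.62 reads per read of Tgif1 at week-0 (interval 4.33 to 4.94) and 1.42 at week-3 (interval 1.19 to 1.68), so these corepressors were not lower by the same factor.

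**Figure D1:**
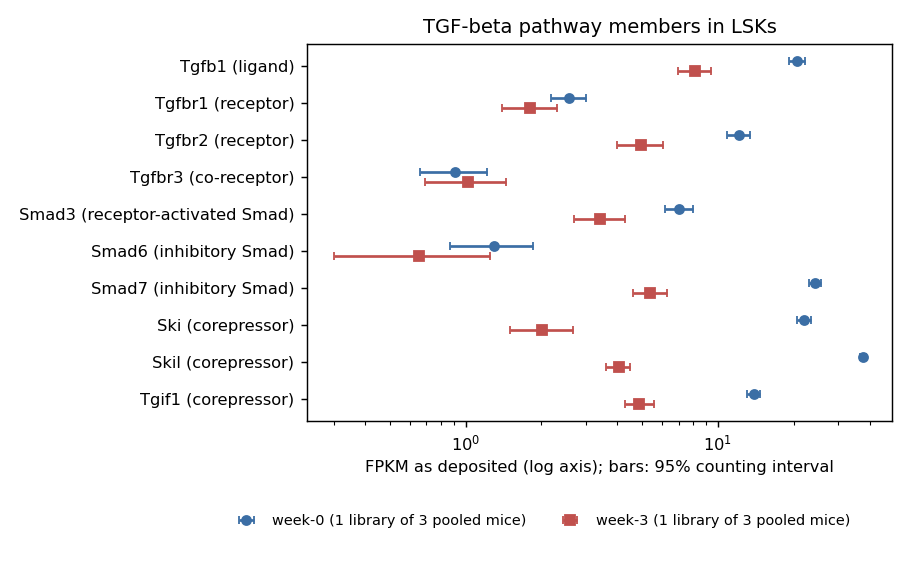
FPKM of the 10 members on a log axis in the week-0 library (circles) and the week-3 library (squares), with bars for the 95% counting interval. Skil stands at 37.5 and 4.04 and Ski at 21.9 and 2.01, whereas the bars of Tgfbr3, at 0.907 and 1.02, overlap.

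Among the Smads, Smad7 had the lowest ratio. Smad7 blocks the activated receptor and brings ubiquitin ligases to it (ENSMUSG00000025880, plus strand of chromosome 18, from 75367529 to 75395935). It had 1190 reads (24.2 FPKM) in the week-0 library against 162 (5.39 FPKM) in the week-3 library, a log2 ratio of -2.17 (interval -2.41 to -1.93). The interval lay apart from that of Smad3, the Smad that carries the signal (ENSMUSG00000032402, minus strand of chromosome 9, from 63646767 to 63757994).

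Smad3 had 256 reads (7.03 FPKM) in the week-0 library against 76 (3.41 FPKM) in the week-3 library. Its log2 ratio of -1.04 (interval -1.43 to -0.67) was only just past the fold, and the interval held values on either side of it. Smad7 had 4.65 reads per read of Smad3 at week-0 (interval 4.06 to 5.34) and 2.13 at week-3 (interval 1.61 to 2.84). The inhibitor was therefore lower relative to the signal carrier in the week-3 library. The same held for Ski, with 3.48 reads per read of Smad3 at week-0 (interval 3.03 to 4.02) and 0.658 at week-3 (interval 0.451 to 0.952).

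Smad6, the inhibitory Smad best known from BMP signalling, was near the limit of detection of such a ratio (ENSMUSG00000036867, minus strand of chromosome 9, from 63953076 to 64022059). It had 29 reads (1.29 FPKM) in the week-0 library against 9 (0.657 FPKM) in the week-3 library. The log2 ratio of -0.98 just missed the fold, which Smad3 just passed, and its interval of -2.24 to 0.14 included no change. With TMM scaling the value was -1.06 and with median-of-ratios scaling -1.05, both past the fold.

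The ligand gene was lower as well. Tgfb1, which blood and bone cells secrete in a latent form (ENSMUSG00000002603, plus strand of chromosome 7, from 25687002 to 25705077), had 745 reads (20.5 FPKM) in the week-0 library against 180 (8.11 FPKM) in the week-3 library, a log2 ratio of -1.34 (interval -1.58 to -1.10). In deposited FPKM it was the fourth of the 10 members at week-0 and the first at week-3, an order that depends on the exon length used. Per kilobase of merged exon, where Tgfbr2 has no value, it ranked 5 at week-0 and 3 at week-3. Its week-3 counting interval on that scale overlapped those of Smad7 and Skil.

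The receptors were not alike. Tgfbr2, the kinase that binds ligand (ENSMUSG00000032440, minus strand of chromosome 9, from 116087698 to 116175363), had 368 reads (12.1 FPKM) in the week-0 library against 92 (4.95 FPKM) in the week-3 library. Its log2 ratio was -1.29 (interval -1.64 to -0.96). Tgfb1 had 2.02 reads per read of Tgfbr2 at week-0 (interval 1.78 to 2.30) and 1.96 at week-3 (interval 1.51 to 2.54), so ligand and receptor were lower by factors that could not be told apart.

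Tgfbr1, the kinase that acts on Smad3 (ENSMUSG00000007613, plus strand of chromosome 4, from 47353222 to 47414931), had 149 reads (2.57 FPKM) in the week-0 library against 64 (1.80 FPKM) in the week-3 library. The log2 ratio of -0.51 was within the fold, and its interval of -0.96 to -0.08 lay below no change. Tgfbr2 had 2.47 reads per read of Tgfbr1 at week-0 (interval 2.04 to 3.01) and 1.44 at week-3 (interval 1.03 to 2.01), with intervals that did not overlap. Tgfbr3, the co-receptor betaglycan (ENSMUSG00000029287, minus strand of chromosome 5, from 107106570 to 107289629), was the only member with a ratio above 1. It had 45 reads (0.907 FPKM) in the week-0 library against 31 (1.02 FPKM) in the week-3 library. The log2 ratio was 0.17 (interval -0.54 to 0.86), and no difference was detectable at this depth.

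**Figure D2:**
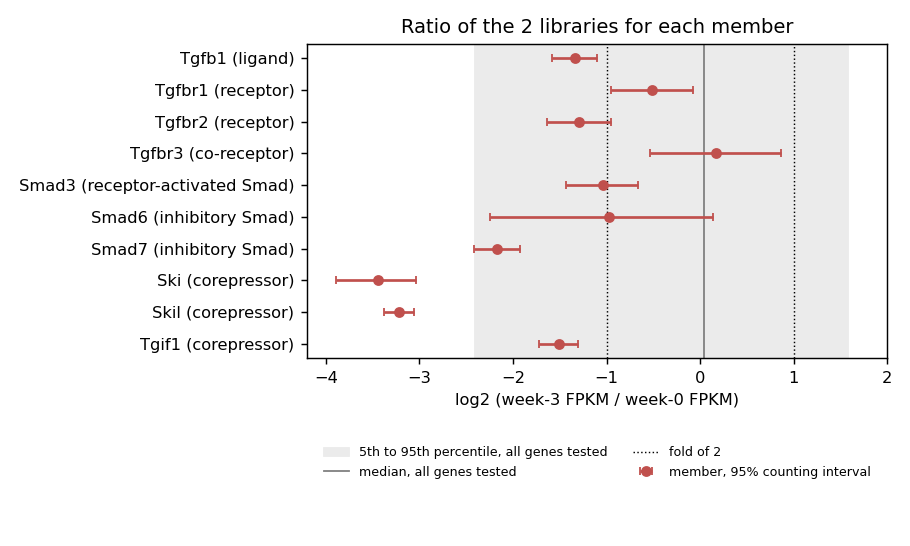
Log2 ratio of week-3 over week-0 for each member (points, with 95% counting intervals), with the 5th to 95th percentile of all genes tested in grey (-2.41 to 1.59). Ski and Skil lie below the grey band, Smad7 lies within it near its lower edge, and Tgfbr3 alone lies above 0.

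The ratios were also set against genes of higher depth. At a limit of 50 reads over both libraries, 7 of 9 members were lower past the fold, beside 12.7% of genes. At 200 reads, a limit chosen after seeing the data, 7 of 8 members were lower, beside 10.7% of the 6895 genes of that depth. The limit of 200 left out Smad6 and Tgfbr3, both within the fold, so its shares are descriptive only. Over all genes tested, requiring also a counting interval that excluded no change left 7 members lower, beside 14.9% of genes lower and 10.5% higher. With the fold and edgeR's exact test at an assumed biological coefficient of variation of 0.1, 7 members were called, beside 13.6% of genes. At an assumed coefficient of 0.4 the members called were Ski and Skil, beside 1.42% of genes. With a fold limit of 1.5 there were 8 members lower, beside 26.8% of genes. Tests on 1 library each compare these libraries, not the conditions. Among the 45 pairs of members, the log2 intervals of 29 did not overlap. The share over pairs of other genes was not computed, and intervals narrow with more reads. This count therefore does not set the members apart from other genes.

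**Figure D3:**
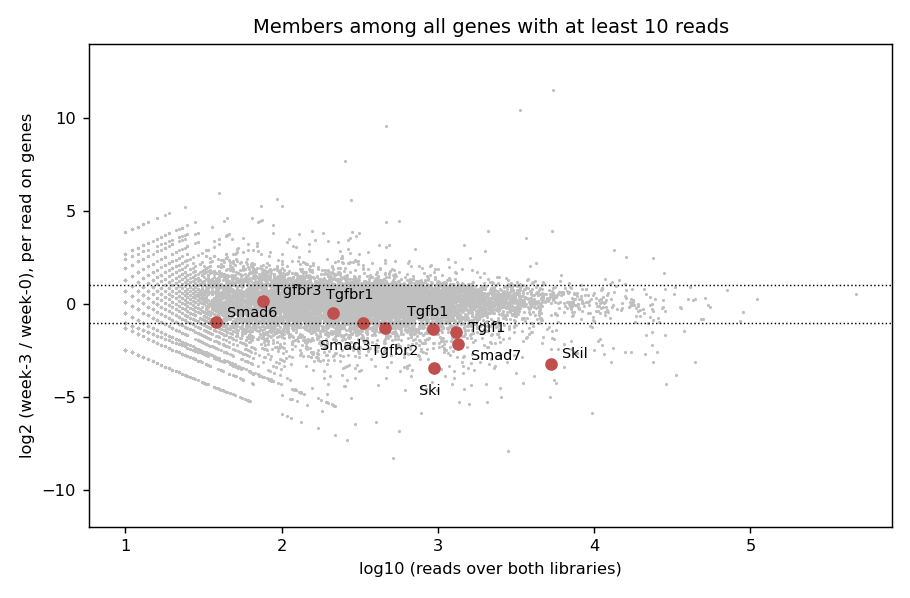
Log2 ratio against log10 of the reads over both libraries for the 13689 genes tested (grey), with the members in red and dotted lines at the fold of 2. A library at 0 reads is drawn at 3 reads. Skil and Ski lie at -3.21 and -3.45, below most genes of like depth.

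Levels of different members can be compared only per length, and the length behind the deposited FPKM matters here. For 68.3% of 9266 genes with at least 50 reads at week-0, that length was within 1% of the sum of all distinct exons in GENCODE M21, overlapping exons counted each time, and for 8.55% it was within 1% of the merged exons. For Skil it was 20819 bases against 9694 bases of merged exons, and for Tgif1 12163 against 5625. The deposited FPKM therefore understates these genes relative to others, while a gene's own ratio is not touched. As RPM per kilobase of merged exon, the order at week-0 was Skil (80.6), Smad7 (41.4), Tgif1 (30.0), Ski (25.2), Tgfb1 (23.2), Smad3 (7.27), Tgfbr1 (3.59), Smad6 (1.42) and Tgfbr3 (1.08). Only the neighbours Ski and Tgfb1, and Smad6 and Tgfbr3, had overlapping counting intervals in that order. At week-3 Tgif1 (10.6), Smad7 (9.22), Tgfb1 (9.19) and Skil (8.68) could not be told apart from their neighbours, and Smad3 (3.53) stood below them. Tgfbr1 (2.52), Ski (2.31), Tgfbr3 (1.22) and Smad6 (0.722) followed with intervals overlapping from each to the next. Ski was thus close to Tgfb1 at week-0 and close to Tgfbr1 at week-3. Tgfbr2 has no value here, since its exons differ between the deposited tables and GENCODE M21.

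The wider pathway was read from 84 further genes in 6 lists. The lists were written with earlier results of these data known, so their counts are descriptive and not independent support. Of these, 66 had at least 10 reads, 24 were lower past the fold and 2 were higher, with a median log2 ratio of -0.50. The shares to read these counts and those of the single lists against are the 17.9% lower and 11.9% higher among all genes tested, and 12.7% and 8.87% among genes with at least 50 reads, where 19 of 58 pathway genes were lower and 2 were higher. The list drawn up as genes induced by TGF-beta had the lowest median, -2.54, with 10 of 12 tested genes lower. The 10 included Id1 (-2.03) and Id3 (-3.61), both named after their values were seen. Whether TGF-beta induces the genes of this list in LSKs was not tested. Cdkn1a of this list, the CDK inhibitor p21, had 14243 reads (729 FPKM) in the week-0 library against 1439 (120 FPKM) in the week-3 library. Its log2 ratio was -2.60 (interval -2.68 to -2.52). Klf10, a TGF-beta-induced zinc finger repressor, was at -3.47 with 2154 and 119 reads, and Tsc22d1, a leucine zipper protein, was at -2.49 with 9048 and 986 reads. Junb, an AP-1 subunit, was at -1.66 with 23787 and 4612 reads. The other 2 tested genes of this list, named after their values were seen, were Tgfbi, a secreted matrix protein, at 1.23 with 51 and 73 reads, and Id2, an inhibitor of E proteins, at 0.01.

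Of the signal-carrying Smads outside the members, none of 4 tested genes was past the fold, and their ratios lay on both sides of no change. Smad2, the partner of Smad3, had 345 reads before and 137 after induction (log2 ratio -0.62, interval -0.92 to -0.33). Smad5, which acts downstream of BMP receptors, was at -0.43 (interval -0.72 to -0.15). Smad1, also of the BMP branch and named after its values were seen, was at 0.63 (interval 0.19 to 1.07) with 93 and 88 reads. Smad9 had no read in either library.

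Of 8 tested receptors and co-receptors, 3 were lower past the fold and none was higher. Eng (endoglin), a TGF-beta co-receptor of endothelium and stem cells, stood at 30.2 FPKM before and 10.1 FPKM after induction (log2 ratio -1.58, interval -1.77 to -1.39). Bambi, a decoy receptor without a kinase, was at -2.12 with 691 and 97 reads, and the activin receptor Acvr2a was at -1.81 with 69 and 12 reads. Fkbp1a, the immunophilin that keeps the type I receptor inactive, was at 0.14 (interval 0.04 to 0.23) with 2351 and 1581 reads.

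Of 12 tested ligands and genes of ligand release, 7 were lower and 1 was higher. Gdf15, a stress-induced cytokine of the family, had 234 reads before and 10 after induction (log2 ratio -3.84, interval -4.92 to -2.93). Itgav, a subunit of integrins that free latent TGF-beta, was at -1.68, and Thbs1, a matrix protein that activates it, went from 59 reads to 1 read. The protease Furin, which cuts the Tgfb1 precursor, was at -0.12 (interval -0.33 to 0.08). Nrros, which tethers latent TGF-beta 1 on myeloid cells, was the higher gene, at 16.6 FPKM before and 40.7 FPKM after induction (log2 ratio 1.29, interval 1.18 to 1.40). Lrrc32, which tethers it on other cells and was named after its values were seen, had 30 reads at week-0 and none at week-3, with the upper end of the log2 interval at -2.22.

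Regulators of receptor and Smad turnover were lower past the fold for 2 of 15 tested genes, with a median of -0.27. These were Usp15, a deubiquitinase acting on the receptor complex (-1.08, with 598 and 173 reads), and Pmepa1, a membrane adaptor that sequesters Smads (-3.81, with 69 and 3 reads). Strap, which stabilises the receptor complex with Smad7, was at 0.05 (interval -0.06 to 0.17). Of 15 tested nuclear co-repressors and co-activators, 2 were lower and none was higher. Tgif2, the paralog of Tgif1, was at -2.47 with 118 and 13 reads. Ncor1, a corepressor that binds histone deacetylases, was at -0.34 (interval -0.48 to -0.19), and the acetyltransferase Crebbp was at -0.52.

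**Figure D4:**
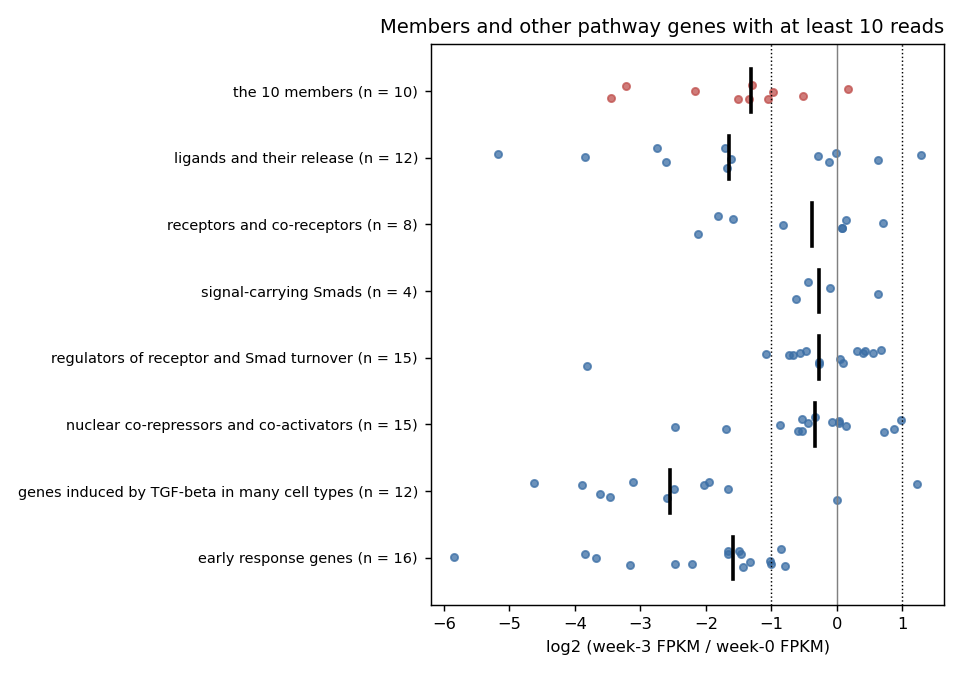
Log2 ratio of each gene with at least 10 reads in the members (red), the 6 pathway lists and the early response genes (blue), with a bar at the median of each list and dotted lines at the fold of 2. The medians are -2.54 for genes listed as induced by TGF-beta, -1.65 for ligands and their release, -1.58 for early response genes and -1.32 for the members. Those of the other lists are -0.37 (receptors), -0.34 (nuclear co-repressors and co-activators), -0.27 (turnover regulators) and -0.27 (signal-carrying Smads). A library at 0 reads is drawn at 3 reads.

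Early response genes, which cells switch on within a short time of many stimuli, were read beside the members as a list of 16. Junb was also in the list drawn up as genes induced by TGF-beta. Of the 16 early response genes 14 were lower past the fold and none was higher, beside 17.9% and 11.9% of all genes tested. Their median log2 ratio was -1.58, and together they took 4.10% of the week-0 reads and 1.22% of the week-3 reads. Egr1 was at -3.15, Zfp36, an mRNA decay factor, at -1.46, and Fos, within the fold, at -0.79. Their part in the ratios of the members was not tested.

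Markers of the sort and of other cells also differed between the libraries. The counts below stand beside 17.9% of all genes tested that were lower past the fold and 11.9% that were higher. Kit and Ly6a, which encode c-kit and Sca1, had reads in both, 1391 and 434 at week-0 and 580 and 199 at week-3. Of 8 LSK genes 3 were lower past the fold, Flt3 among them (-2.02), and 1 was higher, and Cd34 was at -0.61. All 8 mast cell genes were higher, with a summed FPKM of 61.6 at week-0 and 3078 at week-3, such as Cpa3 at 3.92, and Mcpt4 and Tpsb2 had no read at week-0. Of 8 neutrophil and monocyte genes 5 were higher, Elane and Mpo among them, with a summed FPKM of 1765 and 8064. Of 8 erythroid genes 7 were lower, Hba-a1 and Hbb-bs among them, with a summed FPKM of 613 and 46.5. Of 6 tested B lineage genes 5 were lower, with a sum of 295 and 33.9. Jchain held most of the week-0 sum (221 FPKM) and Cd79b, at a log2 ratio of 0.17, most of the week-3 sum (26.4 FPKM). Of 8 megakaryocyte and platelet genes 2 were lower, with a sum of 92.7 and 57.3, and Itga2b was at 0.93. Of 4 tested T and NK lineage genes 3 were lower, Il2rb among them, with a sum of 288 and 425 carried by Nkg7, and Cd3e and Cd8a had no read at week-3 and Cd2 none at week-0. Endothelial and stromal genes summed to 17.4 and 13.6, mostly from Pecam1 and Pdgfrb, 2 of 5 tested genes were lower, and Cdh5, Kdr and Col1a1 had no read at week-3. The part of these cells in the members' ratios was not tested.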

How the data were processed

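LSK RNA was made into cDNA with a SMARTer Ultra Low Input kit and sequenced in paired ends. The authors aligned trimmed reads to the mouse genome (GRCm38), and the submitters' processing notes name TopHat2 2.0.9 and mm10. The counting tool, strand setting and annotation are not given in the sources used here. The deposited counts are whole reads per gene without normalization. The deposited FPKM were scaled by the authors by exon length and by total reads on genes.

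Tables were joined by gene identifier. Members and lists were chosen with earlier results of these data known. The fold limit was 2 in either direction, for genes with 10 or more reads over both libraries, and intervals at 95% are exact. Named beside the members are, per pathway list, up to 4 genes past the fold with an interval excluding no change, by most reads, the 2 genes with most reads, 3 early response genes and 2 genes per marker list by the same order. Kit and Ly6a were added as the sorting genes. Some genes of these lists are not reported here by name. No p-value is printed. Depth was 6356164 reads on genes (week-0 library) and 3886695 (week-3 library).

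Exons came from GENCODE M21. Only Tgfbr3 shared exon bases with another annotated gene, which held 1 read in all. The merged exon lengths, the limit of 200 reads and the KEGG list were chosen after seeing the data. Scaling and calls with edgeR 4.0.16 and DESeq2 1.42.0 in R 4.3.3 were alternatives. Other values came from scipy 1.17.1 and pandas 2.3.3 (Python 3.11.15) and figures from matplotlib 3.10.9, and the procedures were tested on simulated data.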

Additional observations from a re-analysis of the deposited data

How the results depend on the processing

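The number of members lower past the fold was 7, and it stayed between 6 and 8 under every alternative of scaling, pseudocount, filter and fold limit. With edgeR's exact test at an assumed coefficient of variation of 0.4, 2 members were called lower, beside 1.42% of all genes. Of the 66 pathway genes 8 were called lower (from 24) and 0 higher (from 2), beside 1.42% and 0.38% of all genes. The pathway genes that were higher numbered 9 of 66 with a fold limit of 1.5, where 24.6% of all genes were higher. They numbered 4 of 71 when genes above 0 reads in both libraries were used, where 14.2% of all such genes were higher. A pseudocount of 1 moved the log2 ratio of Ski to -2.93 and of Skil to -2.93. The other 38 of 40 alternative values for single members stayed within their counting intervals, and no member past the fold changed its direction. TMM scaling lowered all log2 ratios by 0.08 and median-of-ratios scaling by 0.07. Ratios of Smad6 and Tgfbr3 are limited by depth. No paired analysis was possible because each group has 1 library, and for the same reason no library could be left out.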

Other observations

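The deposited tables assign 82 genes to the KEGG term for TGF-beta signalling, a list read only after the members' values had been seen. Of its 53 genes with at least 10 reads, 17 were lower past the fold and 1 was higher. Without the 7 members that it holds, 12 of 46 were lower and 1 was higher, with a median log2 ratio of -0.26. Of all genes tested, 17.9% were lower and 11.9% higher past the fold, and the median was 0.05.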
